A study of Mus musculus with 30 samples.

Results

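Sprr1a, Sprr2f, Cldn4 and Anxa1 are 4 epithelial genes that respond to injury in many surface tissues, and their signals were followed across 10 groups of mouse olfactory epithelium arrays. The members were the probe sets annotated to exactly 1 of these 4 genes, which gave 6 of the 12488 probe sets on the array and 4 of the 5396 genes with a measured probe set. Sprr1a, Sprr2f and Cldn4 had 1 probe set each and Anxa1 had 3, and the brightest of these stands for Anxa1 unless another is named. The genes had been picked for their signals in these same arrays, so their values are given here as a description, with no test.

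The olfactory epithelium holds the sensory neurons of smell together with supporting and basal cells. The series followed it after bilateral olfactory bulbectomy, an operation that takes away the bulbs in which the sensory axons end. RNA of microdissected olfactory epithelium from mice 6 weeks old was hybridised at 0, 2, 8, 16 and 48 h, with 3 arrays for each time in wild type and in mutants of SR-A, a scavenger receptor of macrophages whose gene is Msr1. All 10 groups thus share age and tissue, and differ in genotype label and time. What 0 h stands for, no operation or tissue taken at its end, is not given in the labels. The design text names 3 wild-type and 3 mutant mice for 15 arrays per genotype, and nothing says that each array is a separate animal, so p-values measure only the spread between these arrays, which may be technical.

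Small proline-rich (SPRR) proteins are cross-linked by transglutaminases into the cornified envelope of squamous epithelia, and their genes are known to be switched on in injured or stressed epithelia and, for Sprr1a, in injured peripheral neurons. Claudin 4, encoded by Cldn4, is a membrane protein of epithelial tight junctions, which seal the space between neighbouring cells. Annexin A1, encoded by Anxa1, binds phospholipids in the presence of calcium, and outside the cell it acts through formyl peptide receptors to limit inflammation. In the olfactory epithelium the supporting sustentacular cells form the apical barrier and carry simple-epithelium keratins such as Krt8 and Krt18.

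The 4 genes lie at 3 places in the mouse genome. In the RefSeq annotation of GRCm38.p6, Sprr1a (gene ID 20753) spans chr3:92483954-92485881 and Sprr2f (gene ID 20760) spans chr3:92365187-92366442, within a cluster of 17 Sprr genes, pseudogenes included, that covers 284.7 kb of chromosome 3. Cldn4 (gene ID 12740) spans chr5:134945123-134946934 and Anxa1 (gene ID 16952) spans chr19:20373434-20390671. Their promoters are shown because the 4 genes are described together, all with a higher mean at 8 h than at 0 h in both genotypes. Each line gives 300 bases from RefSeq on GRCm38.p6, 250 before the transcript start and 50 after it, read 5′ to 3′ on the gene's own strand, with capitals marking TGACTCA in either orientation (the AP-1 site, bound by Fos and Jun family proteins) and TATAAA on the gene's strand (the TATA box). The windows are chr3:92485832-92486131 (minus strand) for Sprr1a, chr3:92364937-92365236 (plus strand) for Sprr2f, chr5:134946885-134947184 (minus strand) for Cldn4 and chr19:20390622-20390921 (minus strand) for Anxa1.
Sprr1a: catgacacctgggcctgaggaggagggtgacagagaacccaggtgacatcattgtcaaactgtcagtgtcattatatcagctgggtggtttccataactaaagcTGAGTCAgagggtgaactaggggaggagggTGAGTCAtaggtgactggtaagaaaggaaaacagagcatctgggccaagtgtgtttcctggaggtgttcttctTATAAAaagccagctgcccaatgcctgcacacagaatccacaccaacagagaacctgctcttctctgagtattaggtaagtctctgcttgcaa
Sprr2f: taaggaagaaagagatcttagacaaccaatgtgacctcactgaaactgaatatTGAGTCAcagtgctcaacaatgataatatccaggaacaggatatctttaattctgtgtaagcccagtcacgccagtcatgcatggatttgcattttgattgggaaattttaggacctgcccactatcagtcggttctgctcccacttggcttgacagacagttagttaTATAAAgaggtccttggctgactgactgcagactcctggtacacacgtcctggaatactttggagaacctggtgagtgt
Cldn4: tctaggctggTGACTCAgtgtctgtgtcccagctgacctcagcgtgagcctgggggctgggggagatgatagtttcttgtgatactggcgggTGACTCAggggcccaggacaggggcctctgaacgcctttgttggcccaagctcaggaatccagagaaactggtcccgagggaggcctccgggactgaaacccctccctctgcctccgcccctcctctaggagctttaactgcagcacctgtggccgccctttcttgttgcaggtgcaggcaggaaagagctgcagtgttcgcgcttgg
Anxa1: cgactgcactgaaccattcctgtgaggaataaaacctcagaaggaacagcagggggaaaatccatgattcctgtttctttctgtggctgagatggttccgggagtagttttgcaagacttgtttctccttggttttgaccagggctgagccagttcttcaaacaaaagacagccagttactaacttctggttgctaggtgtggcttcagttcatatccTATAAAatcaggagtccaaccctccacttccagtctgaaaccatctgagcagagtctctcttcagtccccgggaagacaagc

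The Sprr1a window held 2 AP-1 matches, starting 146 and 116 bases before the transcript start, and a TATAAA 43 bases before it. Sprr2f had 1 AP-1 match 197 bases before the start and a TATAAA at 29 bases. Cldn4 had 2 AP-1 matches, at 240 and 158 bases before the start. Anxa1 had a TATAAA at 32 bases before the start. Of all 32851 promoter windows of the same length, 5.20% held TGACTCA and 13.6% held TATAAA, each counted in either orientation. The share with TATAAA on the gene's strand alone was not counted. TGACTCA was held by 8 of 14 Sprr gene windows. Another motif, TTCNNNGAA (the STAT site), matched 0 of the 4 windows and 8.30% of all windows. These are letter matches and do not show binding.

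The 2% trimmed mean signal was 1500.7 to 1500.9 in each of the 30 arrays, whose number limits the precision of each value. The targeted gene, Msr1, was higher in the mutant-labelled arrays, at 442 ± 82.2 (SD, n = 15) against 155.4 ± 63.0 (SD, n = 15) on 1 probe set and at 225.8 ± 61.7 against 94.2 ± 35.4 on another. No source used here places those probes inside or outside the deleted part, and Msr1 therefore checks no label. Directions between genotypes are those the labels give. In the mutant-labelled 2 h arrays, the 3' minus 5' log2 difference of the Gapdh controls, a sign of RNA quality, was 5.59, 0.15 and 1.27, against -0.31 to -0.13 in the other 27 arrays. Their members' values are given, and no tested comparison uses that group. Its arrays still enter the fit of all 30, and so the shared spread behind each standard error and p-value. The mature olfactory sensory neuron marker Omp had a median signal of 29111.5 over the 30 arrays.

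Each change is a difference between mean log2 signals of 3 arrays a group, after signals under a floor of 113.7 (the pooled 25th percentile, taken as background) were raised to it. The standard error beside a change comes from the limma fit of all 30 arrays, the mutant-labelled 2 h arrays included. It pools the spread within all 10 groups, so it is the same for every comparison of 2 groups on a probe set. A gene is called non-overlapping where all 3 arrays of 1 group lay above or below all 3 of the other. Across the 5396 genes the median change of every comparison lay between -0.05 and 0.03.

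The 4 genes were all higher at 8 h than at 0 h in both genotypes, by group means. At 48 h all 4 had higher means in the wild-type-labelled groups and stood near their 0 h level in the mutant-labelled arrays. Their median change was 1.19 at 8 h, 0.89 at 16 h and 1.72 at 48 h in wild type. In the mutant it was 2.46, 1.09 and 0.08 at the same times. The plot of signals by array shows both courses.

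**Figure D1:**
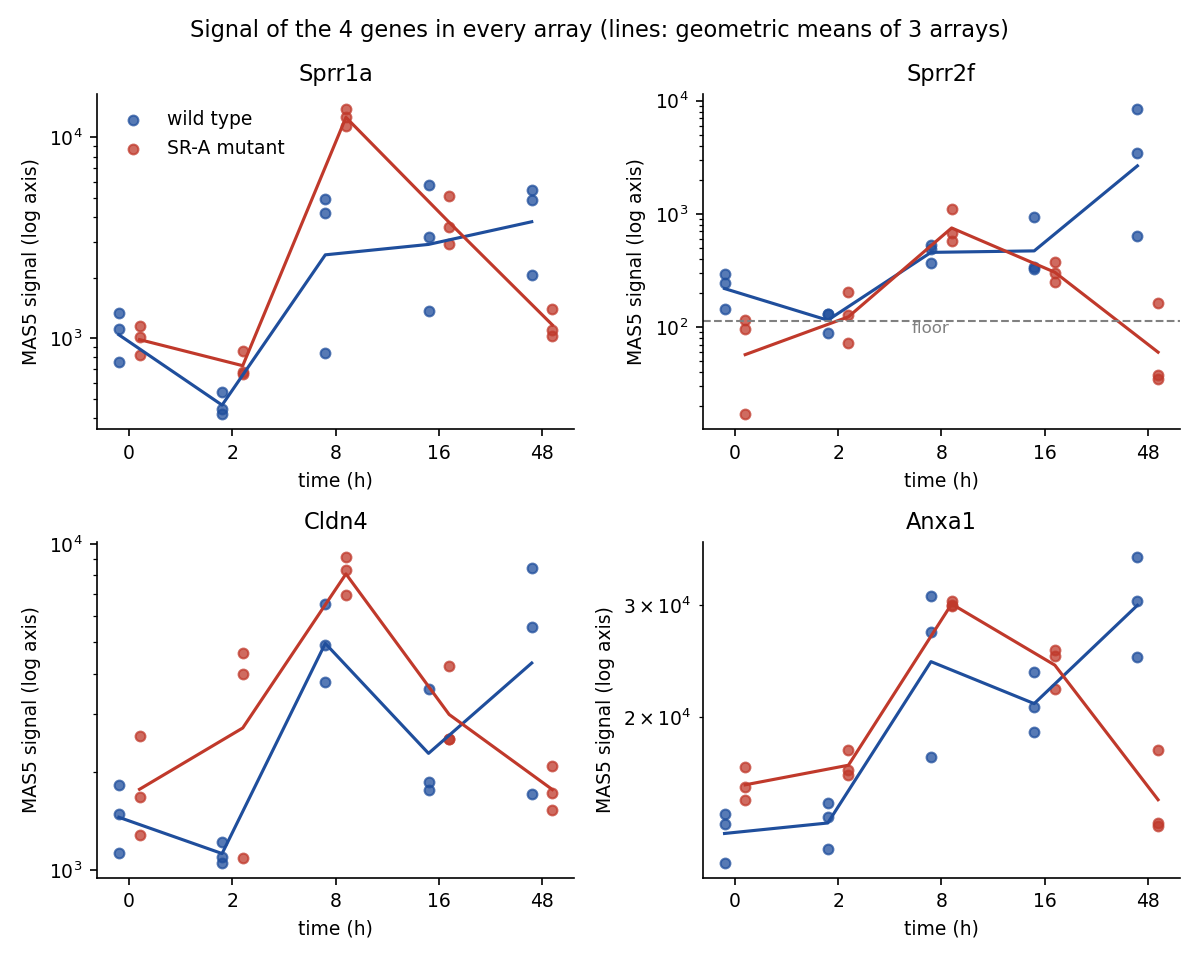
MAS5 signal (log axis) of Sprr1a, Sprr2f, Cldn4 and Anxa1 at 0, 2, 8, 16 and 48 h, drawn at even spacing, with 1 point per array and lines through geometric means of 3 arrays in wild-type-labelled (blue) and mutant-labelled (red) groups. In all 4 panels the red line peaks at 8 h and is back near its 0 h level at 48 h, while the blue line is high at 48 h, and the dashed line in the Sprr2f panel is the floor of 113.7.

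Sprr1a, the cornified envelope precursor, gave wild-type-labelled signals of 1105.4, 760.4 and 1329.9 at 0 h (replicates 1 to 3) and 538.4, 418.4 and 442.7 at 2 h. At 8 h the wild-type-labelled arrays read 4941.6, 4177.3 and 844.9, at 16 h 1361.2, 5741.4 and 3193.4, and at 48 h 4865.7, 2055.5 and 5440.4. The 2 h arrays all lay below the 0 h arrays, the 16 h and 48 h arrays all lay above them, and at 8 h replicate 3 fell within the 0 h range while the other 2 arrays were far above it. The change was -1.16 ± 0.49 at 2 h, 1.32 ± 0.49 at 8 h, 1.49 ± 0.49 at 16 h and 1.87 ± 0.49 (3.65-fold) at 48 h. Without replicate 3 of the 8 h group, the 8 h change was 2.13.

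In the mutant-labelled arrays Sprr1a read 1148.1, 1006.1 and 820.2 at 0 h, 660.5, 861.4 and 678.8 at 2 h, and 13825.0, 11371.8 and 12510.1 at 8 h. At 16 h it read 2950.8, 3560.4 and 5070.8, and at 48 h 1098.8, 1399.2 and 1018.3. The 8 h arrays were above every other array of the series, and the 48 h arrays overlapped those at 0 h. The 8 h change of 3.67 ± 0.49 (12.8-fold) ranked 1 among the rises of the 5396 genes in that comparison. It was 1.94 ± 0.49 at 16 h and 0.24 ± 0.49 at 48 h. Ordered by level, mutant 8 h came first and did not overlap with wild type 48 h, the next group. From there down to mutant 2 h each group overlapped with the next, and wild type 2 h was the lowest, below all arrays of mutant 2 h.

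Sprr2f, another cornified envelope precursor, was dim at rest. Its probe set passed the filter on dim signals through its 7 arrays above the pooled median of 572, which are the arrays in which it was high. The wild-type-labelled arrays read 292.6, 146.0 and 246.9 at 0 h, 130.9, 89.1 and 131.4 at 2 h, 488.0, 529.0 and 371.3 at 8 h, and 328.2, 937.6 and 340.9 at 16 h. At 48 h they read 3474.5, 636.2 and 8478.6, all above every 0 h array but spread over a wide range. The change was 1.06 ± 0.55 at 8 h, 1.10 ± 0.55 at 16 h and 3.60 ± 0.55 (12.1-fold, rank 5 of 5396) at 48 h. Without replicate 2 of the 48 h group the last value was 4.63, and without replicate 3 it was 2.76.

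In the mutant-labelled arrays Sprr2f read 114.7, 17.1 and 95.6 at 0 h, with 2 arrays under the floor, and 72.1, 205.5 and 127.0 at 2 h. It read 1098.8, 673.5 and 574.2 at 8 h, 251.3, 373.0 and 303.7 at 16 h, and 38.2, 35.0 and 162.7 at 48 h, where 2 arrays were again under the floor. All 8 h and 16 h arrays lay above those at 0 h, and the 48 h arrays overlapped them. The signal was at least 6.59-fold higher at 8 h (2.72 ± 0.55) and at least 2.68-fold higher at 16 h (1.42 ± 0.55) than at 0 h. By level, wild type 48 h came first, and every group overlapped with the next in the order. The suffix of the Sprr2f probe set marks probes that can match related transcripts, so a share of this signal may come from other Sprr2 genes.

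Cldn4, the tight junction claudin, read 1825.2, 1129.1 and 1486.8 at 0 h in wild type and 1223.7, 1100.7 and 1055.0 at 2 h. It read 4915.0, 6537.5 and 3783.8 at 8 h, 3596.6, 1765.9 and 1866.1 at 16 h, and 8432.1, 1711.5 and 5561.7 at 48 h. Only the 8 h arrays lay wholly above the 0 h arrays, while at 16 h and 48 h at least 1 array fell within the 0 h range. The change was 1.77 ± 0.47 (3.41-fold, rank 5 of 5396) at 8 h, 0.65 ± 0.47 at 16 h and 1.57 ± 0.47 at 48 h. Without replicate 2 of the 48 h group the last value was 2.24.

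The mutant-labelled Cldn4 signals were 1281.4, 1671.9 and 2586.0 at 0 h, 1092.5, 4636.9 and 4003.2 at 2 h, and 9097.9, 6991.3 and 8325.0 at 8 h. They were 2528.9, 4235.0 and 2518.5 at 16 h and 2089.4, 1718.7 and 1532.6 at 48 h. The 8 h arrays stood clear above the other mutant-labelled arrays. The 2 h group was split, with the replicate whose Gapdh control stood farthest from the other arrays at the low end. The change was 2.19 ± 0.47 (4.57-fold, rank 4 of 5396) at 8 h and 0.76 ± 0.47 at 16 h, and the 48 h and 0 h means were 1780.2 ± 283.5 and 1846.4 ± 669.6 (SD, n = 3). Mutant 8 h was the highest group by level and lay above the next, wild type 8 h. It overlapped with wild type 48 h, the group after that, of which replicate 1 read 8432.1. All later neighbours in the order overlapped.

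Anxa1, the bright member, gave 13537.3, 11763.7 and 14045.2 at 0 h in wild type. The 2 h group ranged from 12380.3 to 14591.4 and overlapped with 0 h. At 8 h the arrays read 31021.8, 27223.0 and 17294.7 and at 48 h 35739.3, 24844.6 and 30443.6, and the 16 h group ranged from 18953.7 to 23542.1. The arrays at 8, 16 and 48 h all lay above those at 0 h. The change was 0.90 ± 0.16 at 8 h, 0.68 ± 0.16 at 16 h and 1.20 ± 0.16 (2.29-fold, rank 81 of 5396) at 48 h.

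In the mutant-labelled arrays Anxa1 read 15473.5, 14778.1 and 16635.2 at 0 h, 30025.8, 30467.7 and 29965.0 at 8 h, and 13569.3, 13456.4 and 17705.9 at 48 h. The groups at 2 h and 16 h ranged from 16158.1 to 17720.8 and from 22124.3 to 25463.9. The 8 h arrays were nearly identical to each other and stood above the 0 h arrays, as did those at 16 h, and the 48 h arrays overlapped with them. The change was 0.95 ± 0.16 at 8 h, 0.63 ± 0.16 at 16 h and -0.08 ± 0.16 at 48 h. By level, mutant 8 h and wild type 48 h came first and overlapped. Wild type 16 h, the fifth in order, lay above mutant 2 h, the next, and all other neighbours overlapped.

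The 3 Anxa1 probe sets followed the same course, with steps of different size. On the second in brightness the change at 48 h was 0.99 ± 0.16 in wild type and 0.03 ± 0.16 in the mutant, and on the dimmest it was 1.74 ± 0.26 and -0.21 ± 0.26. At 8 h these 2 probe sets gave 0.75 and 1.26 in wild type and 0.80 and 1.44 in the mutant. The 48 h arrays on the dimmest read 15660.7, 8543.4 and 12430.3 in wild type and 2547.7, 2470.5 and 3046.8 in the mutant, far apart. The suffixes mark probes that can share sequence with other transcripts, so the probe sets are not independent readings of Anxa1 alone.

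**Figure D2:**
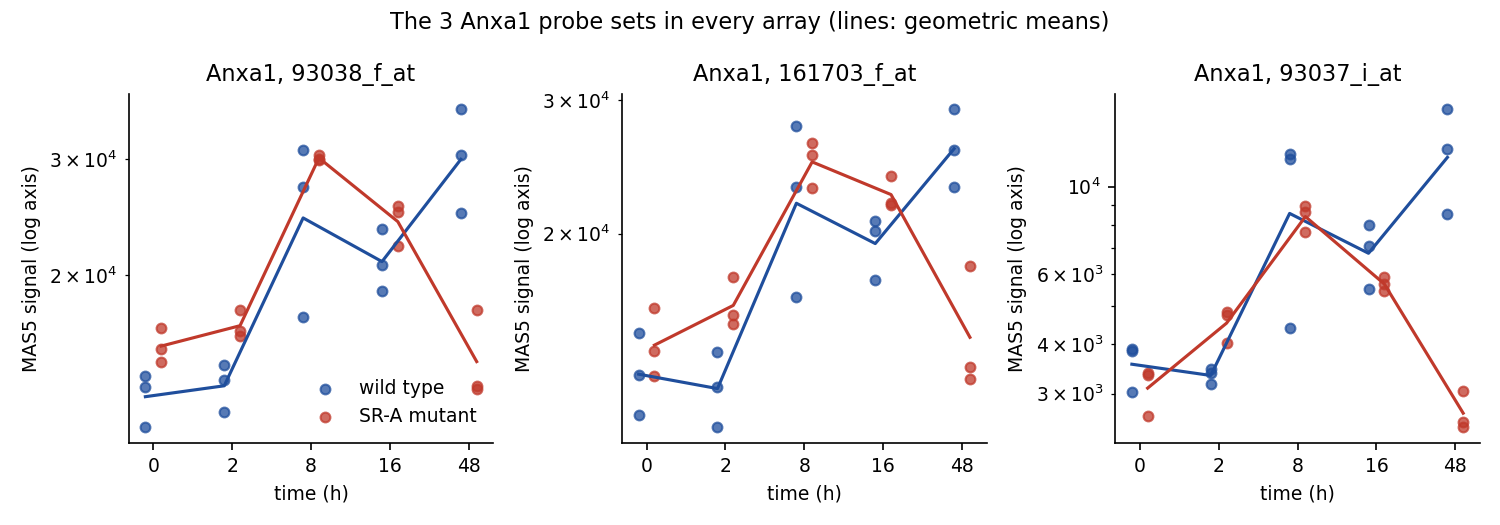
MAS5 signal (log axis) of the 3 Anxa1 probe sets, from the brightest (left) to the dimmest (right), at 0, 2, 8, 16 and 48 h (even spacing), 1 point per array, lines through geometric means of 3 arrays. On all 3 the wild-type-labelled (blue) arrays at 48 h lie above all mutant-labelled (red) arrays at that time, and the groups overlap at 8 h.

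Counts of the 4 genes that stood apart from 0 h are given beside those of the whole array. In wild type 3 of 4 were non-overlapping and higher and 0 of 4 lower at 8 h, where 5.47% and 7.67% of all genes were, 3 of 4 at 16 h (18.2% of all genes) and 3 of 4 at 48 h (18.6% of all genes). At 2 h in wild type 2 of 4, Sprr1a and Sprr2f, were non-overlapping and lower, as were 16.4% of all genes. In the mutant 4 of 4 were higher at 8 h (13.2% of all genes), 3 of 4 at 16 h (14.7%) and 0 of 4 at 48 h (15.3%). The genes were chosen on these comparisons, and nothing is read from the counts. The plot of changes from 0 h sets each gene against the middle 90% of all genes.

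**Figure D3:**
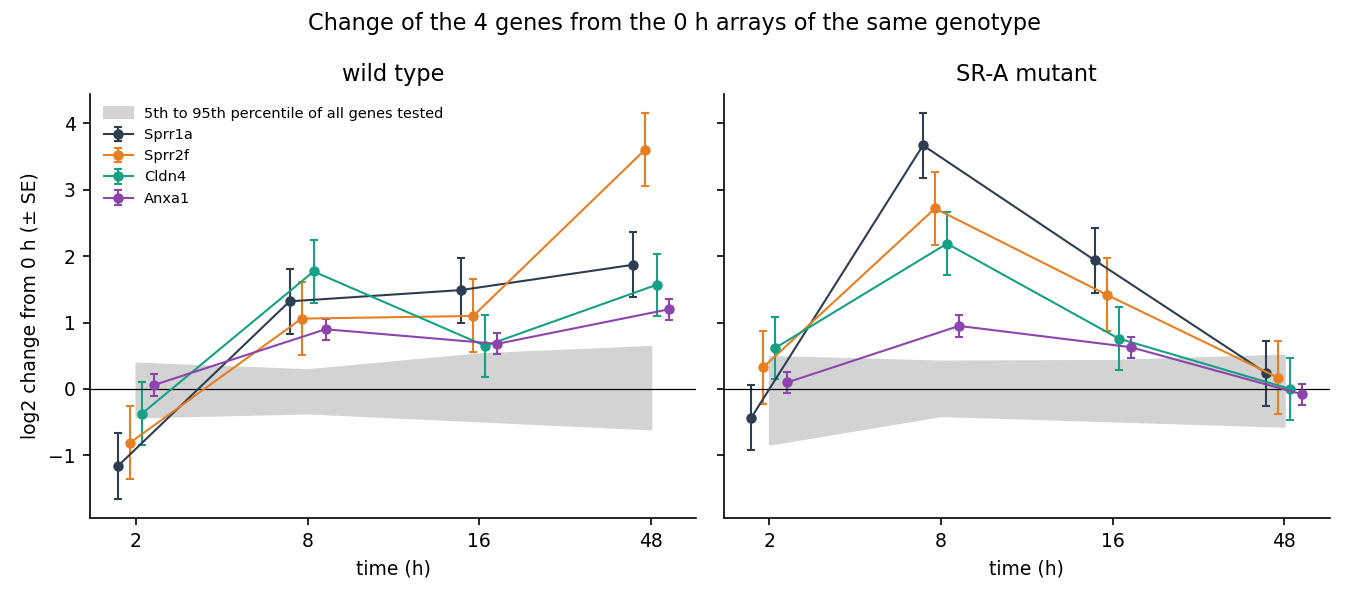
Log2 change from the 0 h arrays of the same genotype (3 arrays a group, ± SE of the fit of all 30 arrays) for Sprr1a, Sprr2f, Cldn4 and Anxa1 at 2, 8, 16 and 48 h (even spacing), wild type left and mutant right, with the 5th to 95th percentile of 5396 genes in grey. In wild type all 4 lie above the grey band at 8 h and 48 h, and in the mutant all 4 lie above it at 8 h and within it at 48 h.

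Between genotypes all 4 genes had higher means in the mutant at 8 h and lower means at 48 h, apart from the dimmest Anxa1 probe set, whose mean at 8 h was lower in the mutant (8413.6 ± 664.1 against 9422.3 ± 4363.9, SD, n = 3). At 0 h Sprr2f was lower in the mutant-labelled arrays (-0.94 ± 0.55), with no overlap, where 24.9% of all genes were lower. At that time Anxa1 was higher on its brightest probe set (0.26 ± 0.16), where 18.0% of all genes were higher, but its 2 other probe sets overlapped. At 2 h Sprr1a (0.65 ± 0.49) and Anxa1 (0.30 ± 0.16) were non-overlapping and higher in the mutant, with 12.0% of all genes, in the group whose RNA control stood apart. At 8 h Sprr1a was 2.27 ± 0.49 higher in the mutant (4.83-fold, rank 1 of 5396), or 1.46 without replicate 3 of wild type. Sprr2f was 0.72 ± 0.55 and Cldn4 0.71 ± 0.47 higher, Anxa1 overlapped at 0.30 ± 0.16 (0.18 and -0.03 on its other probe sets), and 3 of 4 were non-overlapping beside 12.6% of all genes. At 16 h all 4 overlapped, with differences from -0.63 for Sprr2f to 0.40 for Cldn4, and the Sprr1a difference of 0.36 was -0.19 without wild type replicate 1. The second Anxa1 probe set was higher in the mutant at 16 h without overlap (0.21), where 15.4% of all genes were. The dimmest gave -0.26 with overlap.

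At 48 h Sprr2f was at least 20.7-fold lower in the mutant-labelled arrays (-4.37 ± 0.55, rank 3 of 5396), with 2 of their 3 arrays under the floor. Without replicate 2 of wild type this difference was -5.40, and without replicate 3 it was -3.54. Sprr1a was 3.26-fold lower (-1.71 ± 0.49) and Anxa1 2.03-fold lower (-1.02 ± 0.16, and -0.83 and -2.15 on its other probe sets), again with no overlap. Cldn4 was lower by its mean (-1.29 ± 0.47, and -1.96 without replicate 2 of wild type), but that replicate lay within the mutant range. Thus 3 of 4 were non-overlapping and lower, where 15.6% of all genes were.

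The replicates of a group tended to be high or low in several of the 4 genes together. In 4 of 10 groups the same array was lowest for all 4: wild type 0 h replicate 2, wild type 8 h replicate 3, wild type 48 h replicate 2 and mutant 2 h replicate 1. Wild type 8 h replicate 3 lay below its group mean by 1.62 for Sprr1a, 0.30 for Sprr2f, 0.39 for Cldn4 and 0.50 for Anxa1 on the log2 scale. Wild type 48 h replicate 2 lay below by 0.88, 2.06, 1.33 and 0.27 in the same order. Across the 27 arrays other than mutant 2 h, the correlations between the 4 genes ran from 0.71 (Sprr2f with Cldn4) to 0.88 (Sprr1a with Anxa1). These points share the time course, so the values describe likeness of course and no more.

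The 5 genes most like each member over those 27 arrays are given by Pearson correlation of log2 signal. Glrx, which encodes the thiol repair enzyme glutaredoxin, was most like Sprr1a (0.93) and Anxa1 (0.91) and reached 0.83 with Cldn4. Its signal was 1062.2 ± 105.3 (SD, n = 3) at 0 h, 1883.8 ± 450.1 at 8 h and 2035.5 ± 416.2 at 48 h in wild type, and 1110.8 ± 88.1, 2202.7 ± 173.7 and 1146.6 ± 198.8 in the mutant. For Sprr1a the next were Anxa1 (0.88), the small heat shock protein gene Cryab (0.88), the keratin gene Krt8 (0.85) and Gclm (0.84), a subunit of the enzyme that starts glutathione synthesis. A high correlation did not mean the same level at every time: Gclm was 4333.8 ± 431.8 at 0 h and 4058.2 ± 415.6 at 48 h in wild type, and Krt8 11005.6 ± 804.1 and 12703.0 ± 1599.6 (SD, n = 3). Sat1, which acetylates polyamines, was most like Cldn4 (0.90), followed by Anxa1 (0.86), Glrx, the phospholipid scramblase gene Plscr1 (0.82) and Sprr1a (0.80).

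Anxa1 was like Sat1 (0.90), Sprr1a (0.88), the oncostatin M receptor gene Osmr (0.88) and Plscr1 (0.87) after Glrx. Osmr was 577.1 ± 70.7 at 0 h and 1290.9 ± 326.8 at 48 h in the mutant (SD, n = 3), where the 48 h and 0 h arrays of Anxa1 overlapped. For Sprr2f the list was different, led by Litaf (0.93), a lipopolysaccharide-induced factor, at 1999.4 ± 187.0 in wild type 0 h and 3940.9 ± 513.6 in wild type 48 h, against 1650.1 ± 71.6 and 2021.6 ± 92.9 in the mutant (SD, n = 3). Then came Xbp1 (0.85), a transcription factor of the unfolded protein response, Eif6 (0.84), Iigp1 (0.83), an interferon-inducible GTPase, and Lilr4b (0.83). With 9 group means in place of arrays, Glrx and Litaf stayed first for Sprr1a, Anxa1 and Sprr2f, and Glrx came first for Cldn4.

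Besides Sprr1a and Sprr2f, 7 other Sprr genes had a probe set that passed the filter, and the 6 that are on the Sprr list are counted here. At 48 h in wild type 2 of 6 rose and 0 fell, beside 8.15% and 7.25% of all genes. Sprr2b rose by 1.46 ± 0.44 (limma, adjusted p = 0.0267), from 969.2 ± 217.1 to 2823.3 ± 1445.4 (SD, n = 3), and Sprr2i rose by 0.58 ± 0.19 (adjusted p = 0.0424). With single arrays left out, Sprr2i lost its call in 5 of 6 fits (0.45 to 0.79), all but that without wild type 48 h replicate 2. Sprr2b lost its call without wild type 0 h replicate 2 (1.25) and without wild type 48 h replicate 1 (1.06). Sprr2e, Sprr2k, Sprr2g and Sprr1b gave 0.44, 0.30, 0.08 and -0.25 and did not pass. Sprr2g is a transcribed pseudogene in the RefSeq annotation. The counted Sprr1b probe set was bright (15319.2 ± 522.7 in wild type 0 h, SD, n = 3), but the other Sprr1b probe set was under the floor in every array. In the mutant 0 of 6 passed at 8 h or 48 h (1.98% and 10.2% of all genes). Changes at 48 h ran from -0.05 for Sprr2g to 0.45 for Sprr2k.

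Set against wild type at 48 h, 4 of the 6 Sprr genes were lower in the mutant-labelled arrays, where 8.99% of all genes were. Sprr2b was lower by 1.39 ± 0.44 (limma, adjusted p = 0.0314), Sprr2i by 1.02 ± 0.19 (adjusted p = 0.000742), Sprr2e by 0.68 ± 0.18 (adjusted p = 0.00999) and Sprr2g by 0.60 ± 0.18 (adjusted p = 0.0216). Sprr2i kept its call in 6 of 6 fits that left out 1 array. Sprr2b lost it in 4 (-1.66 to -1.0 over the 6 fits), Sprr2e in 3 (-0.91 to -0.52) and Sprr2g in 4 (-0.72 to -0.48), each without wild type 48 h replicate 1 and without replicate 3 among others. At 0 h 0 of the 6 passed between genotypes (17.4% of all genes). Sprr2i (-0.50), Sprr2g (-0.46) and Sprr2e (-0.42) were already lower in the mutant there with no overlap, where 24.9% of all genes were. Sprr2b (-0.27) overlapped at 0 h. The test of the genotype difference in the change from 0 h was added after the values were seen. At 48 h 0 of the 6 passed it (3.06% of all genes). Most of these probe sets carry the suffix for probes shared within a family, so their genes cannot be told apart with certainty. The plot of the family at 48 h shows Sprr2f and Sprr1a at the top in wild type.

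**Figure D4:**
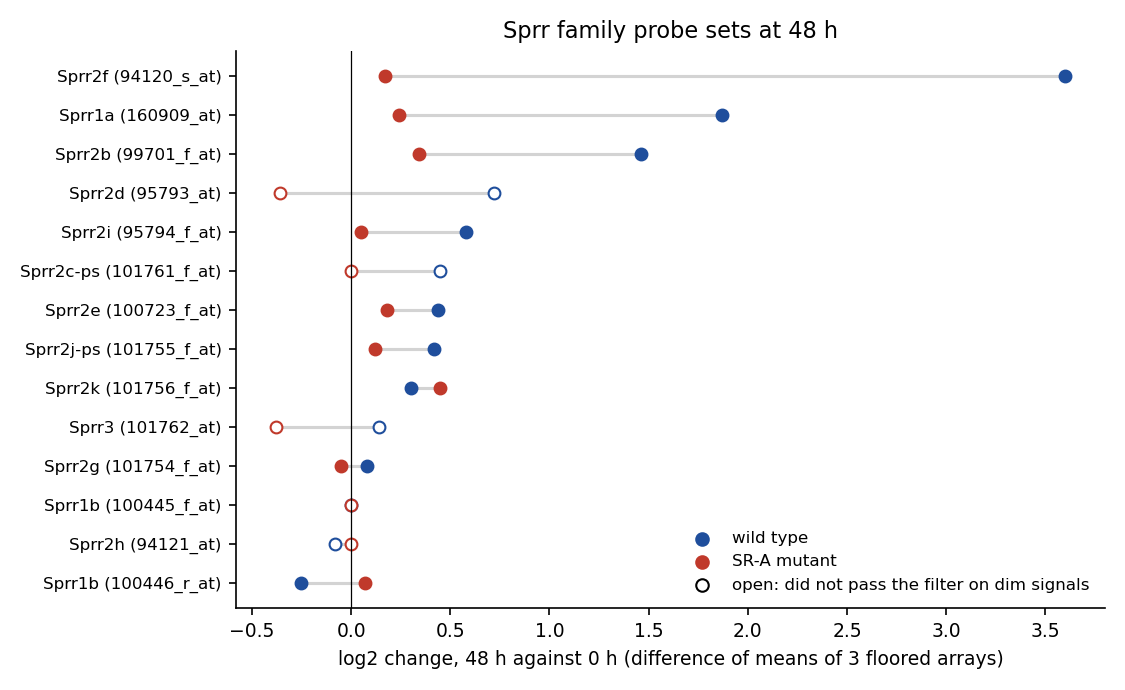
Log2 change at 48 h against 0 h for the 14 probe sets annotated to 1 Sprr gene, in wild type (blue) and mutant (red), each point a difference of means of 3 arrays; open points did not pass the filter on dim signals. Sprr2f, Sprr1a and Sprr2b have the largest wild-type values (3.60, 1.87 and 1.46), and their mutant values lie between 0.17 and 0.34.

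Genes of the pathways around the 4 members were taken from 6 lists of 131 genes: the Sprr family, the cornified envelope, the tight junction, annexins with their S100 partners and receptors, wound epithelium and squamous regulators. Of these, 94 were on the array with a probe set of their own, and 62 passed the filter. At 2 h and 8 h in wild type 0 of 62 passed the limma test at an adjusted p of 0.05, where 0.686% of all genes did at 2 h (0.519% higher, 0.167% lower) and 0.185% at 8 h (0.167% higher, 0.0185% lower), and 8 and 6 had an unadjusted p under 0.05. At 16 h 4 rose and 2 fell (3.52% and 2.89% of all genes, 6.41% in all), but 1 to 3 passed when any 1 array of the 2 groups was left out, and 10 without the mutant 2 h arrays. At 48 h 18 rose and 1 fell, beside 8.15% and 7.25% of all genes (15.4% in all). Without wild type 0 h replicate 2 the 48 h count was 11.

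In the mutant-labelled arrays 0 rose and 1 fell at 8 h, beside 1.32% and 0.667% of all genes (1.98% in all). At 16 h 1 rose and 4 fell (2.08% and 1.95% of all genes, 4.02% in all), and at 48 h 1 rose and 8 fell (5.08% and 5.17%, 10.2% in all). Set against wild type, 7 were higher and 4 lower at 0 h, beside 7.47% and 9.91% of all genes (17.4% in all). At 8 h 2 were higher and 1 lower (1.30% and 1.30%, 2.59% in all), at 16 h 0 and 4 (3.24% and 4.95%, 8.19% in all), and at 48 h 1 and 19 (7.36% and 8.99%, 16.3% in all). The last count was 12 of 62 when only the 2 groups compared were fitted and 13 without wild type 48 h replicate 3. The changes from 0 h differed between genotypes in 0 genes at 8 h by limma (5 at an unadjusted p under 0.05; 0.00% of all genes), in 1 at 16 h (0.130% of all genes) and in 14 at 48 h (3.06%). All 14 at 48 h were lower in the mutant, where 1.96% of all genes were and 1.09% were higher. Leaving out wild type 0 h replicate 2 or 3, wild type 48 h replicate 1 or 3, or mutant 0 h replicate 3 gave 6, 9, 9, 9 and 7 at 48 h, no filter gave 9, and a fit of only the groups compared gave 7.

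Wound epithelium genes were called at 48 h in both genotypes. In wild type 5 of 14 rose and 0 fell, beside 8.15% and 7.25% of all genes. In the mutant 1 rose and 3 fell, beside 5.08% and 5.17%. The list median was 0.75 in wild type, against -0.02 over all genes, and -0.34 in the mutant, against 0.02. Krt6a, a keratin induced at wound edges, read 792.9, 530.5 and 762.6 at 0 h and 7311.5, 4477.8 and 4894.0 at 48 h in wild type, and 838.5, 575.1 and 719.3 against 477.4, 625.8 and 1048.0 in the mutant. Its wild-type arrays at 48 h stood far above all others of those 4 groups. It rose by 2.99 ± 0.49 in wild type (limma, adjusted p = 0.00019), by 3.51 on a second probe set, and gave -0.05 in the mutant, a difference of changes of -3.04 ± 0.69 (adjusted p = 0.0175), which did not pass without wild type 0 h replicate 2.

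Plaur, the receptor of the urokinase plasminogen activator, rose in wild type and fell in the mutant, and the rise was the less stable call. It read 559.6, 360.6 and 438.5 at 0 h and 916.2, 656.1 and 1139.4 at 48 h in wild type, and 555.3, 374.3 and 441.1 against 154.0, 117.8 and 96.3 in the mutant. It rose by 0.98 ± 0.27 in wild type (limma, adjusted p = 0.0163) and fell by 1.82 ± 0.27 in the mutant (adjusted p = 0.000141), where 1 array was under the floor. The rise lost its call without wild type 0 h replicate 2 (0.83) and without wild type 48 h replicate 1 (0.96) or 3 (0.80), and the fall kept it in 6 of 6 such fits. Emp1, an epithelial membrane protein, rose by 0.97 ± 0.18 in wild type and fell by 0.66 ± 0.18 in the mutant (limma, adjusted p = 0.00071 and 0.0218), the fall not passing without mutant 0 h replicate 3 (-0.54) or mutant 48 h replicate 1 (-0.49). Lgals3, the gene of the lectin galectin 3, rose by 1.14 ± 0.29 in wild type (adjusted p = 0.00982) and gave -0.41 in the mutant, and the rise did not pass without wild type 0 h replicate 2 (0.91) or 48 h replicate 1 (1.03). Both differed between genotypes in their change, by -1.63 ± 0.26 for Emp1 and -1.55 ± 0.42 for Lgals3 (limma, adjusted p = 0.000846 and 0.0417). The Lgals3 difference was lost in 8 of 12 fits without 1 array, the Emp1 difference in 0.

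**Figure D5:**
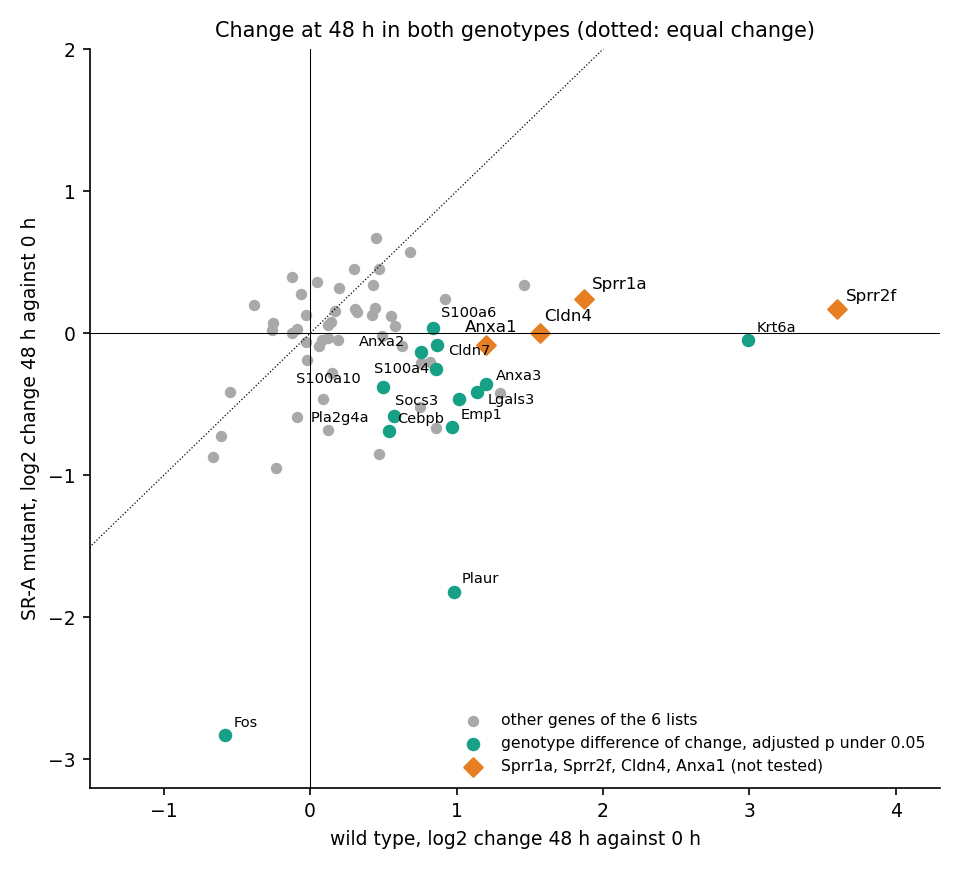
Log2 change at 48 h against 0 h in wild type (horizontal) and mutant (vertical), 1 point per gene: 62 listed genes, those whose change differed between genotypes in green, and Sprr1a, Sprr2f, Cldn4 and Anxa1 in orange. The dotted line marks equal change, and all 14 green points and the 4 orange ones lie below it.

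Among annexins and their partners 6 of 11 rose and 0 fell at 48 h in wild type (8.15% and 7.25% of all genes). The list median was 0.57, and 0 of 11 passed in the mutant (10.2% of all genes). Anxa3 rose by 1.20 ± 0.26 (limma, adjusted p = 0.00255), from 1278.4 ± 273.2 to 2939.5 ± 716.4 (SD, n = 3), while in the mutant it gave -0.36. S100a6 rose by 0.84 ± 0.15 and S100a4 by 0.86 ± 0.20 (adjusted p = 0.000339 and 0.00461), both calcium-binding proteins of the S100 family. In 6 of 11 genes of this list the change at 48 h was lower in the mutant by the added test (1.96% of all genes). At 0 h 4 of 11 were already higher in the mutant and 0 lower (7.47% and 9.91% of all genes). S100a4 and S100a6 were among the 4, by 0.75 and 0.58, with calls lost in 3 and 1 of 6 fits without 1 array. Set against wild type at 48 h, 2 of 11 were lower and 0 higher (8.99% and 7.36% of all genes). Anxa8, another annexin, was higher in the mutant-labelled arrays at 8 h (1.20 ± 0.30, limma, adjusted p = 0.0315), where its arrays read 4429.2, 5777.4 and 5850.8 against 3335.3, 2072.4 and 1780.3 in wild type. That comparison called 0 of the 62 when only its 2 groups were fitted (16 at an unadjusted p under 0.05), and Anxa8 lost its call in 4 of 6 fits without 1 array (1.01 to 1.47), those without replicate 2 or 3 of either group.

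Of 9 tight junction genes, 3 rose and 0 fell at 48 h in wild type (8.15% and 7.25% of all genes). The claudin gene Cldn7 rose by 0.87 ± 0.13 (limma, adjusted p = 4.47e-05), from 2706.7 ± 159.0 to 4963.4 ± 610.1 (SD, n = 3), and gave -0.08 in the mutant. Cldn5, a claudin best known from blood vessel walls, rose by 0.92 ± 0.22 (adjusted p = 0.00613), and its difference of changes did not pass. Set against wild type at 48 h, 1 of 9 was higher in the mutant and 3 were lower (7.36% and 8.99% of all genes). Cldn8 was the higher one (0.84 ± 0.28, limma, adjusted p = 0.0397). Cldn7 and the junctional adhesion molecule gene Jam3 (-0.83 ± 0.23, adjusted p = 0.0172) were among the lower ones. Cldn8 and Jam3 differed in the same directions at 0 h, by 0.89 and -0.71 (limma, adjusted p = 0.0278 and 0.0375). With 1 array left out the Cldn8 call was lost in 4 of 6 fits at 0 h (0.72 to 1.09) and in 4 of 6 at 48 h (0.64 to 1.11). The Jam3 call was lost in 6 of 6 at 0 h (-0.79 to -0.64) and in 2 of 6 at 48 h, without wild type replicate 3 (-0.68) or mutant replicate 2 (-0.76).

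Of 9 cornified envelope genes other than the Sprr genes, 0 rose and 1 fell at 48 h in wild type (8.15% and 7.25% of all genes). That gene was S100a3 (-0.55 ± 0.12, limma, adjusted p = 0.0024), and the list median was 0.14. In the mutant 0 rose and 1 fell at 48 h (5.08% and 5.17% of all genes). This was S100a3 again (-0.41), a call lost in 4 of 6 fits without 1 array. The desmosome gene Dsp was lower in the mutant-labelled arrays at 0, 16 and 48 h (-0.53, -0.74 and -0.68; limma, adjusted p = 0.03, 0.00936 and 0.00735), a call lost at 0 h in 4 of 6 fits without 1 array (-0.75 to -0.35) and at 16 h without mutant replicate 2 (-0.53). Dsc2, a desmosomal cadherin gene, was lower in the mutant at 16 h (-0.78 ± 0.20, adjusted p = 0.0186), but not past the threshold without wild type replicate 1 (-0.74) or 3 (-0.74) or mutant replicate 2 (-0.63).

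Among squamous regulators, 2 of 13 rose and 0 fell at 48 h in wild type (8.15% and 7.25% of all genes). In the mutant 0 rose and 4 fell (5.08% and 5.17% of all genes). Socs3, which is induced by STAT3 and restrains it, rose by 1.02 ± 0.23 in wild type (limma, adjusted p = 0.00396) and gave -0.46 in the mutant. Cebpb, a transcription factor of keratinocyte differentiation and inflammation, rose by 0.54 ± 0.11 in wild type and fell by 0.69 ± 0.11 in the mutant (limma, adjusted p = 0.00199 and 0.000391), from a 0 h level that was 0.74 higher in the mutant (adjusted p = 0.000229). The AP-1 gene Fos fell in the mutant at 8, 16 and 48 h (-1.72, -3.09 and -2.83, SE 0.33 each, limma, adjusted p = 0.00555, 3.4e-06 and 8.24e-06), and in wild type it fell at 16 h (-1.66 ± 0.33, adjusted p = 0.00537). Jun fell by 0.95 ± 0.18 in the mutant at 48 h (limma, adjusted p = 0.00165).

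Markers of other cell types were read beside these results. Of 10 markers of keratinising squamous epithelium 9 were on the array, and their summed signal stayed between 3560.1 and 5816.7 in every group, with Krt77 at the floor in 30 of 30 arrays. Of the 4 measured, 0 rose at any time in either genotype, while Krt2 fell at 48 h in wild type. Among horizontal basal cell markers Krt14 and Krt15 were at the floor in 30 arrays and Krt5 in 28, and the summed signal of all 5 was 1378.8 to 1572.9 at 0 h and 1935.4 to 2219.1 at 48 h in wild type, against 978.1 to 1841.0 and 1210.0 to 1799.9 in the mutant. The sustentacular sum (3 of 6 on the array) was 35538.6 to 41933.5 at 0 h and 42951.7 to 50709.1 at 8 h in wild type, and 41578.1 to 43889.4 and 50634.8 to 57197.5 in the mutant. At 48 h it was 45424.2 to 54768.0 in wild type and 44503.8 to 50073.7 in the mutant, above the 0 h range in both. The changes of Krt8, Krt18 and Sult1c1 at 48 h were 0.2, 0.41 and 0.45 in wild type. In the mutant they were 0.03, 0.08 and 0.31. Krt8 rose by 0.68 at 8 h in the mutant (limma, adjusted p = 0.00743) and Krt18 by 0.41 at 48 h in wild type (adjusted p = 0.0134). The part of these cells in the results was not tested.

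Among neutrophil markers 2 of 7 measured rose and 1 fell at 48 h in wild type, beside 8.15% and 7.25% of all genes. Set against wild type at 48 h, 1 was higher and 2 lower in the mutant (7.36% and 8.99% of all genes). S100a8 rose by 2.09 and S100a9 by 2.01 in wild type (limma, adjusted p = 0.000301 and 0.000752), and both were lower in the mutant at that time (-1.94 and -2.08, adjusted p = 0.000711 and 0.000582). S100a8 read 3198.1, 5741.1 and 1962.5 at 0 h and 17538.7, 10282.0 and 15394.3 at 48 h in wild type, and 2368.2, 4756.0 and 4343.6 at 48 h in the mutant. These S100 proteins are abundant in neutrophils and are also made by injured squamous epithelium. The other neutrophil markers were mixed. Camp fell by 1.85 at 48 h in wild type and was 1.60 higher in the mutant at that time (limma, adjusted p = 0.0124 and 0.0276). Ngp and Csf3r gave -0.65 and -0.63 at 48 h in wild type, and Mmp9 and Ltf gave 0.12 and 0.36, without a call. The median of the 7 was 0.12. Cxcr2 was at the floor in 28 arrays. The neutrophil sum was 42219.8 to 49594.2 at 0 h and 54991.5 to 76385.5 at 48 h in wild type, and 41990.6 to 45163.2 and 38175.7 to 63632.0 in the mutant. Whether these cells contribute to the 48 h signals of the 4 genes was not tested. In bulk tissue fewer cells of a type and less RNA per cell cannot be told apart.

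The macrophage sum (8 of 8 on the array) was higher at 48 h than at 0 h in both genotypes, at 18117.8 to 23887.3 against 10595.6 to 13258.1 in wild type and 19331.6 to 23597.1 against 13457.6 to 18660.5 in the mutant. By limma 2 of 7 measured markers rose in wild type, Lyz2 and Cd68 (8.15% of all genes). In the mutant Cd68, C1qb and C1qc rose, 3 of 7 (5.08% of all genes). Lyz2 gave 1.36 in wild type and 0.26 in the mutant, C1qc 0.27 and 0.99, and Csf1r -0.01 in both. The mature neuron sum (3 of 6 on the array) was lower at 48 h in both, at 24327.2 to 29690.9 against 44207.9 to 52586.9 in wild type and 26836.8 to 36943.7 against 46710.1 to 52437.9 in the mutant.  For respiratory epithelium 5 of 8 markers were on the array. Their sum was 28705.8 to 30537.1 at 0 h and 27717.3 to 34802.9 at 48 h in wild type. In the mutant it was 36056.3 to 41639.5 and 37441.7 to 51293.3. Cyp2f2 made up most of this sum, with a median signal of 29013.3 over all arrays against 3279.4 for Foxj1, the next brightest. At 48 h in the mutant Cyp2f2 gave 0.26, without a call. Tekt1 gave -0.64 there (limma, adjusted p = 0.022), and Foxj1 and Muc5ac gave -0.43 and -0.54 without a call. The sum therefore does not speak for the other markers.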

How the data were processed

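Gene expression was measured on 30 Affymetrix MG-U74Av2 arrays, 3 for each of 10 groups of genotype and time, with groups taken from the sample labels. The authors deposited 1 linear signal intensity per probe set and array. MAS5 is the tool listed in the submitters' processing notes, with no version given in the sources used here.

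The 4 members, the 6 gene lists and the marker lists were chosen with earlier results of these data known, so no member was tested. Of 12488 probe sets 66 were controls. Signals under 113.7, the pooled 25th percentile, were raised to it, and log2 was taken. The filter on dim signals asked for 3 or more arrays over 572, the median of all values, and left 6968 probe sets. Gene names came from the probe table, and 5396 genes stand as their brightest tested probe set annotated to 1 gene. All 30 arrays were fitted in limma 3.58.1 (R 4.3.3) with 10 group means, two-sided, with Benjamini-Hochberg adjustment across those 6968 in every contrast. The difference of changes between genotypes was added after the values were seen, with background shares counted over the 5396 genes.

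Named in the text are all member probe sets, up to 4 genes of each list with the largest change past the threshold, all measured Sprr genes of the list, and the 5 genes most like each member. Single markers (S100a8, S100a9, Camp, Ltf, Cyp2f2, Krt2, Krt8, Krt18, Omp and others) were named after their values were seen. The labels give replicate numbers 1 to 3 in every group. In 0 of 13 comparisons did every pair of same-numbered arrays deviate together at a correlation over 0.1, so the numbers were not taken as pairs. Promoters came from RefSeq tables on GRCm38.p6, and protein sequences were not used here. Tables were made with Python 3.11.15, pandas 2.3.3 and matplotlib 3.10.9.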

Additional observations from a re-analysis of the deposited data

Results flagged for a closer look

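These genes of the 6 lists changed differently from 0 h in the 2 genotypes, by a limma test of the difference that was added after the values were seen, with p adjusted over all tested probe sets. Values are the mutant change minus the wild-type change on the log2 scale, and every array set has 3 arrays. At 48 h Plaur differed by -2.81 ± 0.39 (adjusted p = 0.000209), Krt6a by -3.04 ± 0.69 (0.0175), Emp1 by -1.63 ± 0.26 (0.000846) and Lgals3 by -1.55 ± 0.42 (0.0417), all from the wound epithelium list. Anxa3 differed by -1.56 ± 0.37 (adjusted p = 0.0218), S100a4 by -1.11 ± 0.28 (0.0332) and S100a6 by -0.80 ± 0.21 (0.0342), from the annexin list. Cldn7 differed by -0.95 ± 0.18 (adjusted p = 0.00419). Among the squamous regulators Socs3 differed by -1.48 ± 0.33 (adjusted p = 0.0163), Fos by -2.25 ± 0.47 (0.0111) and Cebpb by -1.23 ± 0.16 (0.000105), and Cebpb also differed at 16 h, by -0.95 ± 0.16 (0.0316). The 0 h level was higher in the mutant for Cebpb (0.74, adjusted p = 0.000229), and for Fos the 0 h difference of 0.73 did not pass (0.128). The 0 h levels of S100a4 and S100a6 were also called higher in the mutant, by 0.75 and 0.58. The dimmer Fos probe set, which did not pass the filter, gave -0.17 in wild type and 0.02 in the mutant at 48 h. With each of 12 arrays left out in turn, the 48 h calls of Plaur, Emp1, Cldn7, Socs3, Fos and Cebpb were lost in 0 fits, Krt6a in 1, Anxa3 in 3 and Lgals3, S100a4 and S100a6 in 8 each, and the 16 h call of Cebpb in 6. No cause of these differences was tested.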

How the results depend on the processing

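Results were recomputed without the filter, with quantile-normalized arrays, with 16 added to each signal and no floor, with a replicate block, without the mutant-labelled 2 h arrays, from the compared groups alone and without single arrays. The difference-of-changes tests were added after the values were seen. No called change of a named gene turned direction. Of 66 changes of members 7 turned in at least 1 recomputation, the main values being 0.36 or smaller in size, as did 1 of 11 medians, that of mutant against wild type at 0 h (0.09, and -0.10 without wild type replicate 2). Cldn4 in the mutant at 48 h, with no change in its main value, ran from -0.24 to 0.27. The members' median changes kept to within the spread between arrays in 84 of 88 recomputations, and the exceptions were a pseudocount of 16, which gave 2.74 at 8 h and 1.34 at 16 h in the mutant, and leaving out 1 array, which gave 2.28 to 2.59 for mutant 8 h and 0.00 to 0.39 for mutant against wild type at 16 h. Without the mutant 2 h arrays the lists' called genes numbered 1 at 2 h and 10 at 16 h in wild type, 5 at 8 h in the mutant and 7 between genotypes at 8 h. With only the groups compared they numbered 1 at 2 h and 11 at 16 h in wild type, 5 at 8 h, 1 at 16 h and 4 at 48 h in the mutant, 0 at 8 h and 12 at 48 h between genotypes, and 3 at 16 h and 7 at 48 h for the difference of changes. No filter gave 2 for mutant 16 h, 1 between genotypes at 8 h and 9 for the difference of changes at 48 h, and quantile normalization gave 3 for mutant 16 h. Leaving out 1 array gave 1 to 3 for wild type 16 h, 11 to 19 for wild type 48 h, 1 to 2, 2 to 4 and 6 to 9 for mutant 8, 16 and 48 h, 5 to 9, 1 to 4, 2 to 6 and 13 to 20 between genotypes at 0, 8, 16 and 48 h, and 0 to 1 and 6 to 14 for the difference of changes at 16 and 48 h. The cause of these shifts was not tested, and fits of fewer groups or arrays hold fewer residual degrees of freedom. With the replicate block the counts were 18 for wild type 48 h, 21 between genotypes at 48 h and 12 for the difference of changes at 48 h, and no count moved by over 1.5 times, though 2 calls of named genes were lost. Over all settings the 55 calls of named genes were lost in 126 of 660 recomputations: 90 without 1 array, 19 with only the groups compared, 11 without the filter, 4 under quantile normalization and 2 with the block. Of the 55 calls 30 were kept in every fit without 1 array and 25 were not. In 3 of 13 comparisons every array correlated best with its own number, as a hint from the data only. Signals near the floor, as for Sprr2f in the mutant at 0 h and 48 h, limit a fold to a bound.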

Other observations

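A further 2 probe sets of the array are annotated to the same 3 Sprr genes together and so name none of them. In wild type they were higher at 48 h than at 0 h by 4.19 and 2.06 on the log2 scale, with no overlap of arrays, and in the mutant they changed by -0.27 and 0.06. At 8 h they gave 0.68 and -0.32 in wild type and 0.72 and 0.31 in the mutant, with overlap in each. Between genotypes at 48 h both overlapped, at -2.72 and -1.81.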
